A study of Mus musculus with 18 samples.

Results

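A set of 10 genes that classically mark endothelial cells was followed through GFP+ Tcf21-lineage cardiac fibroblasts of the neonatal mouse, namely Pecam1, Cdh5, Kdr, Flt1, Tek, Tie1, Emcn, Esam, Cldn5 and Vwf. They are the rows of the deposited count table that carry these symbols. All 10 were found among the 55453 gene symbols of the table, and all 10 passed the filter on low counts that left 16170 genes to be tested.

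Endothelial cells line the vessels and the chambers of the heart. They sense vascular growth factors through receptor tyrosine kinases, of which Kdr and Flt1 bind the VEGF ligands and Tek binds the angiopoietins, while Tie1 acts as the partner of Tek. They hold together through junction and adhesion proteins, namely VE-cadherin (Cdh5), PECAM-1 (Pecam1), the adhesion molecule Esam and the tight junction protein claudin-5 (Cldn5). On their surface they carry the sialomucin endomucin (Emcn). They also store and secrete von Willebrand factor (Vwf), which carries platelets to sites of damage. Pecam1, Esam and Vwf are also known from platelets, and Pecam1 from leukocytes.

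The cells came from C57BL/6J pups carrying Tcf21-MerCreMer and Rosa-mTmG. All pups, controls included, received 4-hydroxy tamoxifen on day 1 after birth (P1), which turns on membrane GFP in cells that use the Tcf21 gene at that time and in their descendants, while every other cell keeps tdTomato. Cells were sorted by these colours from the apical part of ventricles freed of atria and valves, so the endothelium proper belonged to the tdTomato cells, of which no library was analysed here. The 18 libraries form 6 groups of 3: P2 baseline and P10 baseline from pups without surgery, and the 4 operated groups, P2 sham, P2 resected, P10 sham and P10 resected, from pups collected 3 days after surgery at P2 or P10 (at P5 or P13). Sham surgery opened the chest and exposed the heart, and resection cut away the apex. The P2 baseline cells had carried the label for the shortest time of all groups. The sex of the pups and the number of pups in a library are not given, and the digestion was longer for P10 and P13 hearts than for P2 and P5 hearts, so that age and digestion time cannot be told apart.

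Library totals ran from 10462737 to 22980554 counted reads. The fibroblast label held in every library: Tcf21 was at 203 to 448 CPM (the share of a library's counts scaled up to a common total by edgeR's TMM factors), Pdgfra at 256 to 879 CPM, and none of the 11 fibroblast markers was at 0 in any library. Markers of other cells were lower. Per library, summed CPM was 48900 to 119000 for the fibroblast list, 1252 to 2886 for 11 mural genes, 159 to 1511 for 10 cardiomyocyte genes, 5.29 to 1080 for 11 macrophage genes, 25.0 to 478 for 5 erythroid genes, 9.59 to 52.1 for 5 platelet genes and 0 to 54.5 for 6 epicardial genes. The label titles of P2 resected replicate 1 and P10 resected replicate 1 are written in another form than those of the other 16 libraries, and these were also the libraries with the most counts of several endothelial genes, so that the main results on the members are also given without them.

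The members differed first in level. Per length of their exons, Tek was at 52.3 ± 15.1 RPKM (CPM per kilobase of exon, SD over 18 libraries) and Esam at 13.1 ± 6.00 RPKM. Next came Cldn5 at 9.15 ± 12.1 RPKM, Pecam1 at 2.86 ± 2.79 RPKM and Tie1 at 2.38 ± 2.701 RPKM. Kdr, Cdh5, Emcn, Flt1 and Vwf averaged 1.45, 1.42, 0.716, 0.494 and 0.289 RPKM. For comparison, Tcf21 averaged 123 RPKM and Pdgfra 46.1 RPKM, and the median gene tested was at 3.44 RPKM. A receptor that marks endothelium was therefore measured in the sorted fibroblasts at a level per length next to that of the fibroblast receptor Pdgfra, and 93.6% of the genes tested lay below it. Tek was above Esam in 18 of 18 libraries. Esam was above Cldn5 in 14, Cldn5 above Pecam1 in 14, Pecam1 above Tie1 in 13, Tie1 above Kdr in 13 and Cdh5 above Emcn in 14 of the 18. Kdr exceeded Cdh5 in only 9 of 18 libraries, Emcn exceeded Flt1 in 12 and Flt1 exceeded Vwf in 11, and below Esam each pair of neighbouring means lay closer than the larger SD of the pair. Without the first library of both resected groups the order was the same, with Cldn5 at 5.72 RPKM and Vwf at 0.184 RPKM.

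**Figure D1:**
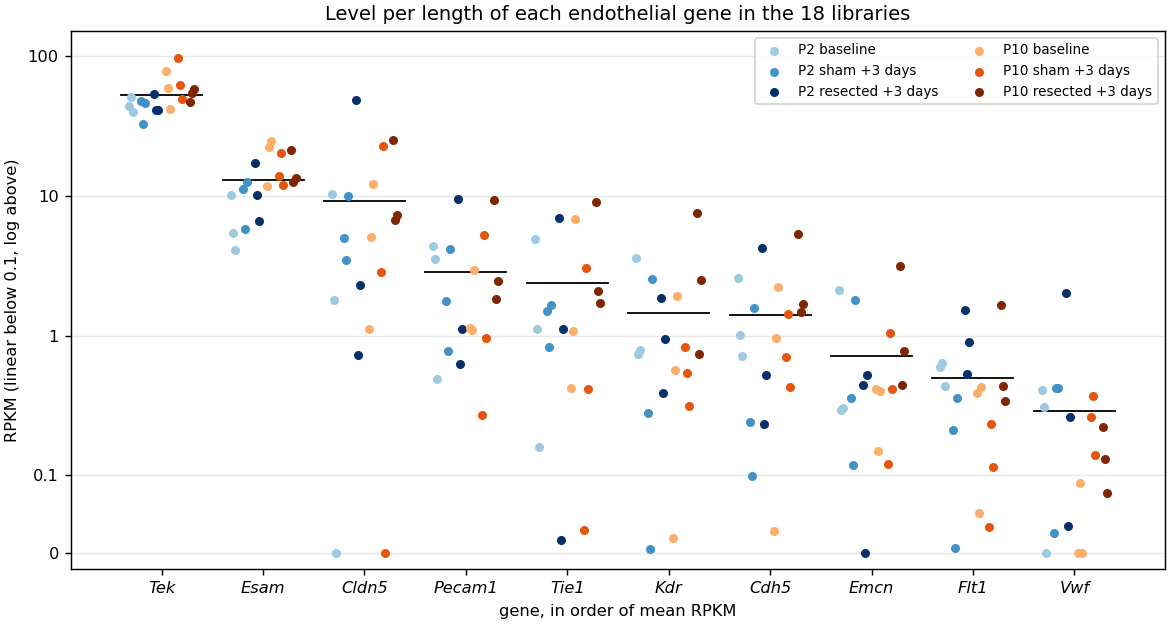
Level per exon length (RPKM, linear below 0.1 and logarithmic above) of the 10 endothelial genes in each of the 18 libraries, coloured by group, with a black line at the mean of all libraries. Tek lies at 32.7 to 96.4 RPKM around its mean of 52.3 RPKM and Esam at 4.10 to 24.6 RPKM around 13.1 RPKM. Each of the other 8 genes spreads more widely relative to its mean, with single libraries at or near 0 for most of them.

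They differed in steadiness too. The biological coefficient of variation (BCV, the spread between replicates of a group beyond counting noise, as edgeR estimates it) was 0.245 for Tek and 0.375 for Esam, below the median of 0.437 over all genes tested. It was 0.801 for Flt1, 0.855 for Pecam1, 0.963 for Cdh5, 1.03 for Emcn, 1.05 for Kdr, 1.14 for Tie1, 1.25 for Vwf and 1.31 for Cldn5, which places these 8 genes between the 71.4th and the 84.1st percentile. Tcf21, the gene that defines the lineage, had a BCV of 0.241. Without the first library of both resected groups the BCV was 0.257 for Tek, 0.363 for Esam, 0.748 to 1.27 for the other 8 and 0.483 for the median gene. Between the highest and the lowest library Tek differed 2.94-fold and Esam 5.99-fold. No count at all was found for Emcn in 1 library, for Cldn5 in 2 and for Vwf in 3, where 3 counts, the most that a count of 0 allows, would be 0.128 to 0.296 CPM. The pair of Tek and Esam was set apart from the other 8 after these values were seen, so the split is a description and was not tested.

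**Figure D2:**
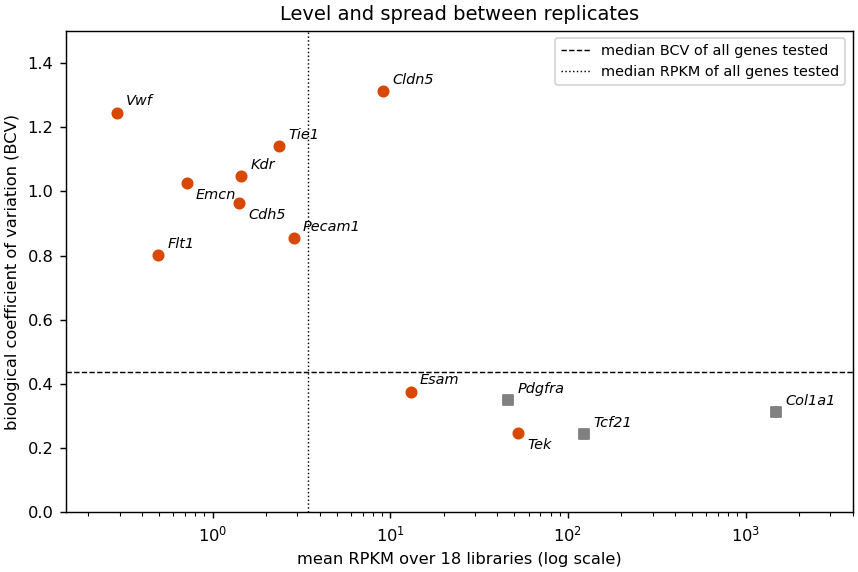
Mean RPKM over 18 libraries (log scale) against the biological coefficient of variation for the 10 endothelial genes (orange circles) and for the fibroblast genes Tcf21, Pdgfra and Col1a1 (grey squares), with the medians of all genes tested as lines. Tek (BCV 0.245) and Esam (BCV 0.375) sit with the fibroblast genes under the median BCV of 0.437, and the other 8 sit at 0.801 or above.

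Promoters are shown for 3 members that stand for the patterns described here: Tek, the steady and most abundant gene, Cldn5, with the largest BCV over all 18 libraries (without the first library of both resected groups Vwf had the largest, 1.27 against 1.24), and Flt1, whose resected libraries lay above the sham libraries at both ages. The RefSeq table (GRCm38.p6) held a start for 6 of the 10 members (Emcn, Tek, Tie1, Kdr, Flt1 and Cldn5). The 250 bases before the start are printed 5′ to 3′ on the gene's own strand, at chr4:94739039-94739288 on the plus strand for Tek, chr16:18776597-18776846 on the plus strand for Cldn5 and chr5:147726012-147726261 on the minus strand for Flt1. Capitals mark AGGAAG or its reverse complement CTTCCT, the core that ETS factors bind, and TATAAA or TTTATA, the TATA box.
Tek: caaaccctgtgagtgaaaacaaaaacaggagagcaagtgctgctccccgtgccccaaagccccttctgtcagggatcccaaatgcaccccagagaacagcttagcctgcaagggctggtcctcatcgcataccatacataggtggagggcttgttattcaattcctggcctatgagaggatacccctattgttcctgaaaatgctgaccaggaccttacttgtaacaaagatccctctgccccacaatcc
Cldn5: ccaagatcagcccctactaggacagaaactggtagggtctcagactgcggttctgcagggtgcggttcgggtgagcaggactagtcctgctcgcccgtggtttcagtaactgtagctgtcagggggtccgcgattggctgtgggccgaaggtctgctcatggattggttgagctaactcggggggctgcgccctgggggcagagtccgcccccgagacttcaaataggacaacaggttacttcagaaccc
Flt1: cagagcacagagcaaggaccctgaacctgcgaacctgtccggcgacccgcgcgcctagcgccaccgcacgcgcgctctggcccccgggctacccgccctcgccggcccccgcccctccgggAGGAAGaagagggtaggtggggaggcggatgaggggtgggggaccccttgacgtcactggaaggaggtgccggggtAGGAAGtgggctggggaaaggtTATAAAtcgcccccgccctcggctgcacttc
The ETS letters began 129 and 53 bases and the TATA letters 31 bases before the start of Flt1. AGGAAG or CTTCCT was in 3 of the 6 windows (Emcn, Tie1 and Flt1) and in 29.5% of 32851 windows of this length in the table. TATAAA or TTTATA was in 1 of the 6 (Flt1) and in 12.4% of all windows. The forkhead letters TGTTTAC or GTAAACA were in 0 of the 6 and in 3.17% of all windows. G and C made up 51.2% of the Tek window, 59.6% of the Cldn5 window and 70.4% of the Flt1 window, which held 2, 12 and 23 CpG pairs.

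Among the receptors, Tek (chromosome 4 of GRCm38, 94739289 to 94874976, plus strand) supplied most of the counts of the set. Its CPM was 205, 239 and 187 in P2 baseline replicates 1 to 3, 225, 154 and 216 in P2 sham, and 252, 194 and 194 in P2 resected. It was 369, 278 and 197 in P10 baseline, 454, 292 and 232 in P10 sham, and 221, 255 and 272 in P10 resected. All libraries of all groups thus held Tek, the sham libraries of P10 lay above those of P2 without overlap, and in the other groups the ages overlapped. Group means were 210 ± 26.6, 198 ± 38.4 and 213 ± 33.2 CPM (SD, n = 3) for the P2 groups in this order and 281 ± 85.9, 326 ± 115 and 249 ± 26.04 CPM (SD, n = 3) for the P10 groups.

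Tie1, the close relative of Tek (chromosome 4, 118471191 to 118490061, minus strand), had none of this evenness. It ranged from 0.0855 CPM in P2 resected replicate 2 to 44.0 CPM in P10 resected replicate 1, with a median of 6.45 CPM. Kdr, the main VEGF receptor of endothelium (chromosome 5, 75932827 to 75978458, minus strand), ran from 0.0461 CPM in P2 sham replicate 2 to 68.2 CPM in P10 resected replicate 1, with a median of 6.87 CPM. For both genes the groups overlapped in every comparison.

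Flt1, the VEGF receptor that also acts as a trap for its ligands (chromosome 5, 147561604 to 147726011, minus strand), was low throughout. Its CPM was 8.10, 8.65 and 5.91 in P2 baseline replicates 1 to 3, 2.83, 0.0922 and 4.83 in P2 sham, and 20.7, 7.18 and 12.2 in P2 resected. It was 5.22, 0.696 and 5.82 in P10 baseline, 0.450, 3.17 and 1.56 in P10 sham, and 22.2, 5.91 and 4.58 in P10 resected. At both ages the resected libraries lay above the sham libraries without overlap. These groups were apart, in either direction, for 8.47% of all genes tested at P2 and 8.68% at P10.

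**Figure D3:**
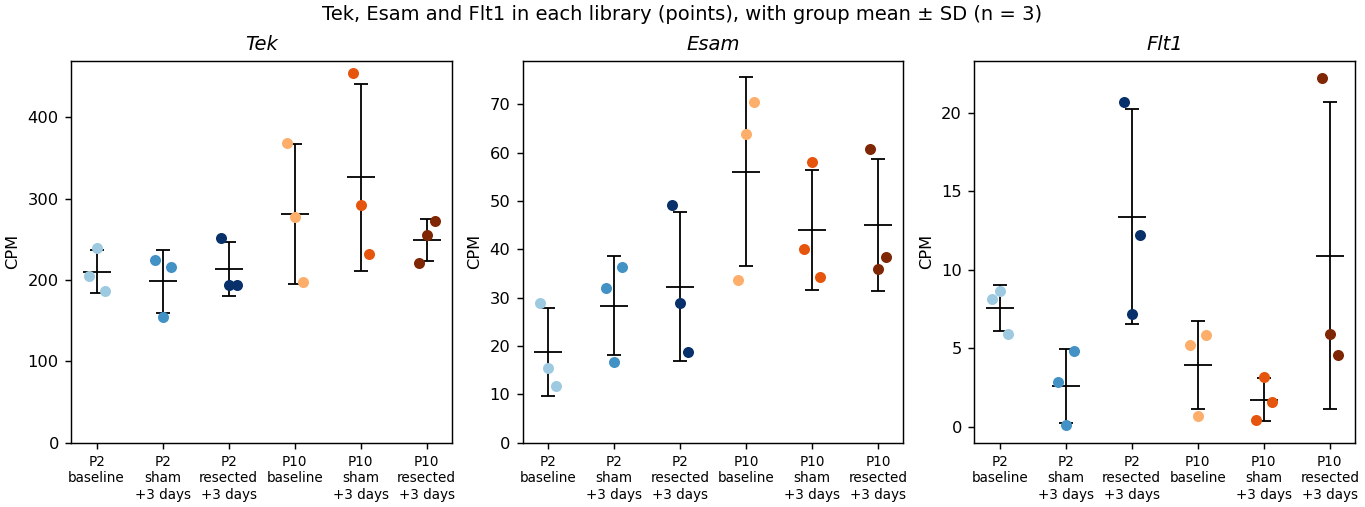
CPM of Tek, Esam and Flt1 in each library (points), with the mean and SD of each group of 3 (black). Tek is present in all libraries at 154 to 454 CPM, Esam is higher in P10 baseline than in P2 baseline libraries, and Flt1 is lowest in the sham groups.

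Of the junction and surface genes, Esam (chromosome 9, 37528078 to 37538319, plus strand) was measured in every library. Its CPM was 29.0, 15.5 and 11.8 in P2 baseline replicates 1 to 3, 31.95, 16.7 and 36.2 in P2 sham, and 49.2, 28.9 and 18.8 in P2 resected. It was 33.7, 63.9 and 70.4 in P10 baseline, 40.0, 58.0 and 34.2 in P10 sham, and 60.7, 35.9 and 38.5 in P10 resected. All 9 libraries of the P10 groups were thus at 33.7 CPM or more, and 2 of the 9 P2 libraries, P2 sham replicate 3 and P2 resected replicate 1, reached that level.

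Pecam1 (chromosome 11, 106654217 to 106750628, minus strand) ranged from 1.70 CPM in P10 sham replicate 1 to 59.0 CPM in P2 resected replicate 1, with a median of 11.2 CPM. Cdh5, whose product is the core of the endothelial adherens junction (chromosome 8, 104101625 to 104144511, plus strand), ranged from 0.121 to 22.5 CPM with a median of 4.17 CPM. Cldn5, the claudin of tight endothelial barriers (chromosome 16, 18776847 to 18778262, plus strand), ranged from 0 in P2 baseline replicate 3 and P10 sham replicate 3 to 68.0 CPM in P2 resected replicate 1. Cdh5 was highest in P10 resected replicate 1, and for each of these genes libraries of a single group lay far apart. Emcn, a mark of capillary and venous endothelium and of endocardium (chromosome 3, 137341067 to 137432185, plus strand), ranged from 0 in P2 resected replicate 2 to 17.2 CPM in P10 resected replicate 1, with a median of 2.25 CPM. Vwf, the secreted member (chromosome 6, 125546774 to 125686679, plus strand), was at 0 in P2 baseline replicate 3 and in P10 baseline replicates 1 and 3 and highest, at 32.7 CPM, in P2 resected replicate 1. No exon of any of the 10 genes overlaps an exon of another gene in the GENCODE M21 annotation.

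The 8 genes other than Tek and Esam tended to be high in the same libraries. Their summed CPM was 135, 56.1 and 21.5 in P2 baseline replicates 1 to 3, 34.3, 21.7 and 99.2 in P2 sham, and 251, 17.3 and 45.6 in P2 resected. It was 18.5, 31.5 and 104 in P10 baseline, 21.7, 105 and 18.7 in P10 sham, and 271, 54.3 and 73.6 in P10 resected. The first library of each resected group stood above all others, and the other 16 libraries ran from 17.3 to 135 CPM with a median of 40.0 CPM. Over the 18 libraries Tek did not follow, with a Pearson's r of -0.06 to the mean of the 8. It was at 454 CPM in P10 sham replicate 1 and 221 CPM in P10 resected replicate 1. In P2 resected replicate 1, however, it was at 252 CPM, the highest of the P2 window. Its share of the summed CPM of the set, which falls by construction as the 8 rise, was 88.1% in P10 sham replicate 1 and 40.0% in P10 resected replicate 1. In bulk libraries, fewer cells of a type and less RNA per cell cannot be told apart.

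**Figure D4:**
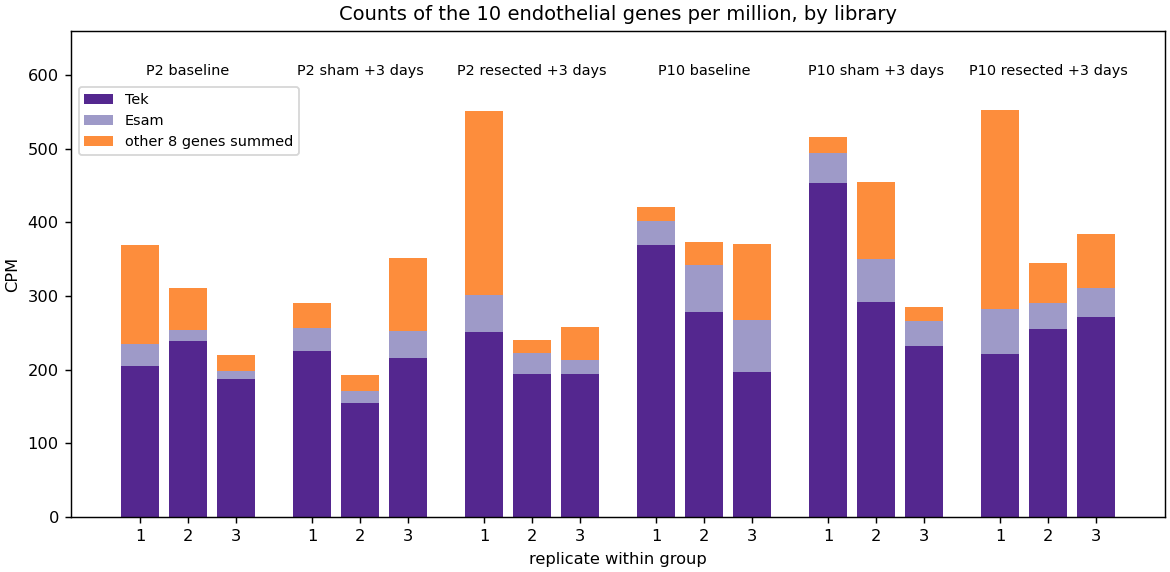
CPM of Tek, of Esam and of the other 8 endothelial genes summed, stacked for each library, with the 3 replicates of each group side by side. The other 8 genes reach 251 CPM in P2 resected replicate 1 and 271 CPM in P10 resected replicate 1 and at most 135 CPM in the other 16 libraries, while Tek stays between 154 and 454 CPM.

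As a description over the 18 libraries, which share the sorting and amplification steps, log2 CPM of the 8 genes correlated with a median Pearson's r of 0.49 over their 28 pairs, from -0.03 to 0.90, the last for Cdh5 with Kdr. Tek correlated with the mean of the 8 at -0.06 and Esam at 0.44, and Tek with Esam at 0.41. Over the 16 libraries without the first of both resected groups, the median of the 28 pairs was 0.37 (from -0.26 to 0.90), Tek and Esam correlated with the mean of the 8 at -0.06 and 0.31, and Tek with Esam at 0.46. The 8 genes did not keep a fixed ratio to each other. Pecam1 made up 7.83% to 39.1% of their sum, Kdr 0.212% to 34.8%, Flt1 0.425% to 41.6% and Cldn5 0% to 30.7%. The 2 libraries with the largest sums differed in this too. In P2 resected replicate 1, Cldn5 made up 27.1% of the sum, Vwf 13.0% and Kdr 6.67%. In P10 resected replicate 1 the shares were 13.1%, 1.32% and 25.1%. Markers of some other cells stood high in these libraries as well: of 18 libraries they had places 2 and 3 for the macrophage sum, at 446 and 443 CPM against a median of 95.4 CPM, and places 4 and 2 for the platelet sum, at 36.0 and 51.0 CPM against a median of 26.9 CPM. P10 resected replicate 1 had place 1 for the erythroid sum (478 CPM) and the epicardial sum (54.5 CPM), where P2 resected replicate 1 had places 9 and 4. For the macrophage list, 9 of 11 genes were at 0 in some library, Csf1r in 2 and Adgre1 in 3 of them. For the mural sum P2 resected replicate 1 and P10 resected replicate 1 had places 15 and 8, at 1404 and 1689 CPM against a median of 1637 CPM. For the cardiomyocyte sum they had places 15 and 10, at 320 and 733 CPM against a median of 782 CPM. For the fibroblast sum they had places 13 and 5. P10 resected replicate 2 had the highest macrophage sum, 1080 CPM, and 54.3 CPM of the 8 genes. The part of these cells in the values was not tested.

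Age was compared first without surgery, P10 baseline against P2 baseline. Esam rose, from 18.7 ± 9.05 to 56.0 ± 19.6 CPM (SD, n = 3), and the 3 libraries of P10 lay above those of P2. This was a log2 fold change of 1.58 (SE 0.44, Benjamini-Hochberg adjusted p = 0.0494 over all genes tested, edgeR quasi-likelihood test). Esam was the single member called, 1 of 10, against 4.38% of all genes tested in either direction and 2.71% higher at P10. DESeq2 was run without the low-count filter. It and limma voom each called Esam alone too, where they called 5.72% of 28906 and 22.5% of 16170 genes. The call is close to its limit: without P2 baseline replicate 2 or 3, or P10 baseline replicate 2 or 3, the adjusted p of edgeR was 0.173, 0.177, 0.154 and 0.169, with log2 fold changes of 1.46, 1.33, 1.47 and 1.38. It was also lost in a fit of the baseline groups alone, at an adjusted p of 0.1045 by edgeR and a log2 fold change of 1.602.

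Flt1 was the other member whose baseline groups did not overlap, at 0.696 to 5.82 CPM at P10 and 5.91 to 8.65 CPM at P2, but its log2 fold change of -0.96 (SE 0.98) did not pass. Groups apart were thus found for 2 of 10 members and for 22.4% of all genes tested. Tek had a log2 fold change of 0.42 with a 95% interval of -0.14 to 0.98. The remaining 7 genes gave values between -2.91 for Vwf and 0.58 for Cldn5 with SEs of 1.08 to 1.65, so that changes of several-fold in either direction could not be told from none. The median log2 fold change was -0.56 over the 10 members and -0.03 over all genes tested.

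Fibroblast and mural markers differed between the baseline groups as well. The fibroblast sum was 48900 to 57140 CPM at P2 and 83580 to 112300 CPM at P10, with 5 of 11 genes called higher and none at 0. The mural sum was 1381 to 1519 CPM at P2 and 1879 to 2554 CPM at P10, with 5 of 11 genes called higher and Myh11 at 0 in 1 of the 18 libraries. Over all genes tested, 18.7% had an unadjusted p under 0.05 in this comparison. For the platelet list the ranges overlapped, at 11.5 to 25.2 and 9.59 to 29.7 CPM, with 0 of 4 tested genes called by edgeR and 0 at an unadjusted p under 0.05. The cardiomyocyte sum went the other way, from 1123 to 1511 CPM at P2 to 540 to 723 CPM at P10, with 0 of 10 genes called by edgeR and 5 at an unadjusted p under 0.05. Of the macrophage genes 0 of 11 were called by edgeR and 1 had an unadjusted p under 0.05, with sums of 14.6 to 65.8 and 17.7 to 199.8 CPM. Of the 5 erythroid genes, 0 were called by edgeR, 4 had an unadjusted p under 0.05 and 5 were higher at P10, with sums of 25.0 to 47.2 CPM at P2 and 46.8 to 157.5 CPM at P10. Of the 6 epicardial genes, 0 were called by edgeR, 2 had an unadjusted p under 0.05 and 0 were higher, with sums of 3.49 to 17.95 CPM at P2 and 0 to 3.26 CPM at P10. The part of these markers in the result for Esam was not tested.

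Over all 9 libraries of each age, the P10 window (its 3 groups averaged) against the P2 window, Esam was again higher, at 48.4 ± 14.6 against 26.4 ± 11.97 CPM (SD, n = 9). That is 0.90 on the log2 scale (SE 0.25, Benjamini-Hochberg adjusted p = 0.022, edgeR quasi-likelihood test). This comparison shares its libraries with the one at baseline. The call was lost, at adjusted p-values from edgeR of 0.0505, 0.0517 and 0.0529, without P2 resected replicate 3, P10 sham replicate 2 or P10 resected replicate 1. It held without the first library of both resected groups (0.95, adjusted p = 0.027 by edgeR). Tek was at 286 ± 80.2 against 207 ± 29.4 CPM (SD, n = 9), a log2 fold change of 0.45 with a 95% interval of 0.13 to 0.78. Its Benjamini-Hochberg adjusted p of 0.0582 by the edgeR quasi-likelihood test missed the threshold, which it passed with DESeq2 (0.0322) and with limma voom (0.0434), and with edgeR under upper quartile scaling (0.0400), without the low-count filter (0.0385), without P10 baseline replicate 3 (0.0315) or without P10 sham replicate 3 (0.0356). By edgeR 1 of 10 members was called, against 13.5% of all genes tested, or 7.11% higher at P10. DESeq2 and limma voom called 2 of 10, Tek and Esam, against 10.9% and 28.3% of the genes they tested. DESeq2, run without the low-count filter, had 28906 genes, and limma voom 16170. Marker lists of other cells moved between the windows too. By edgeR 5 of 10 cardiomyocyte genes were called lower, 5 of 11 fibroblast genes higher, 5 of 11 mural genes higher and 1 lower, and 1 of 5 erythroid genes higher, and their part in the values of Esam and Tek was not tested. The CPM of the windows overlapped for 10 of 10 members and did not for 2.51% of genes.

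With all 18 libraries, edgeR with the low-count filter, DESeq2 and limma voom called none of the remaining 8 genes between windows, and edgeR had 0 of the 8 at an unadjusted p under 0.05, where 28.3% of all genes were. Vwf was the farthest from 0, with a log2 fold change of -1.83 (95% interval -3.74 to 0.07, Benjamini-Hochberg adjusted p = 0.195, edgeR quasi-likelihood test). It rested on single libraries: without P2 resected replicate 1 it was -1.04 (adjusted p = 0.536 by edgeR), without P10 baseline replicate 2 it was -3.91 and called (adjusted p = 0.0488 by edgeR), and without the low-count filter it was called at -1.78 (adjusted p = 0.0106 by edgeR). Flt1 was at -0.61 (SE 0.57), and Kdr, Emcn, Pecam1, Cldn5, Cdh5 and Tie1 lay between -0.16 and 0.29 with SEs of 0.62 to 0.92. The median over the members was 0.15, and -0.06 over all genes tested.

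Within the operated groups, age gave no call. In P10 sham against P2 sham libraries, edgeR called 0 of 10 members, where it called 3.18% of all genes tested. At an unadjusted p under 0.05 there was 1 member, Tek, and 16.3% of genes, and DESeq2 and limma voom called 0 members, where they called 4.4% and 4.37% of the genes they tested. Tek had a log2 fold change of 0.72 (95% interval 0.16 to 1.28, Benjamini-Hochberg adjusted p = 0.180, edgeR quasi-likelihood test), and was the 1 member whose groups did not overlap, against 16.7% of genes. Other cells' markers moved in this comparison too. The cardiomyocyte sum was 919 to 1257 CPM at P2 and 159 to 831 CPM at P10, with 1 of 10 genes positive (median log2 fold change -1.32), 0 called by edgeR and 6 at an unadjusted p under 0.05. The macrophage sum was 5.29 to 195 CPM at P2 and 89.1 to 362 CPM at P10, with 11 of 11 genes positive (median 1.34), 0 called by edgeR and 0 at an unadjusted p under 0.05. Of the fibroblast genes 10 of 11 were positive, 1 was called higher by edgeR and 5 had an unadjusted p under 0.05, and of the mural genes 8 of 11 were positive, with 1 called higher by edgeR and 3 at that level. Of the erythroid genes 0 of 5 were positive. The part of these markers in the value of Tek was not tested. Esam had a log2 fold change of 0.64 (95% interval -0.27 to 1.55). In P10 resected against P2 resected libraries, edgeR, DESeq2 and limma voom each called 0 members, while they called 0.86%, 1.73% and 5.62% of the genes they tested. At an unadjusted p under 0.05 there were 0 members and 8.77% of genes, and 0 members and 23.3% of genes had groups apart. Tek was at 0.23 (95% interval -0.33 to 0.78) and Esam at 0.48 (95% interval -0.42 to 1.38). The sham libraries also serve as controls for resection. Whether the age difference of Esam differed between baseline, sham and resected pups was not tested.

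**Figure D5:**
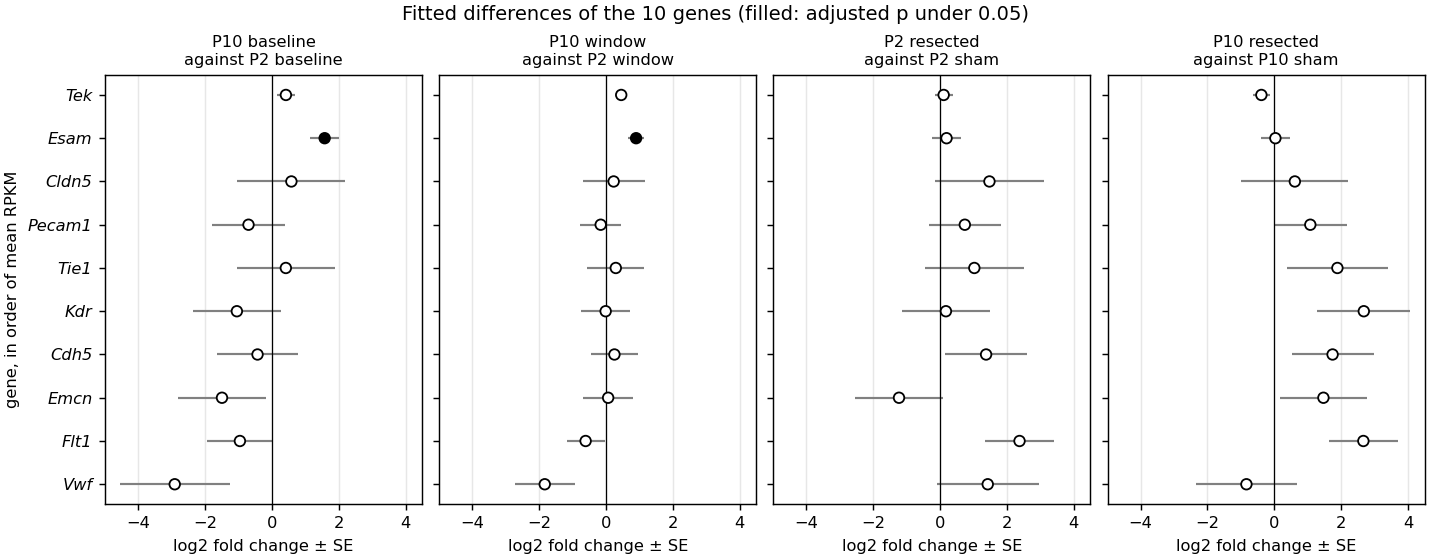
Log2 fold change with its standard error for the 10 genes in 4 comparisons, with filled points for an adjusted p under 0.05 by edgeR. Esam is filled in both age comparisons (1.58 and 0.90), no gene is filled after resection, and the bars of Tek and Esam are shorter than those of the other 8.

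Apical resection removes the tip of the ventricle, and the comparison with sham surgery asks whether these genes responded to it after 3 days. At P2, edgeR called 0 of 10 members and 0% of all genes tested, and DESeq2 and limma voom called 0 members, beside 0.111% and 0% of the genes they tested. At an unadjusted p under 0.05 there was 1 member, Flt1, and 4.51% of genes. Flt1 was at 13.4 ± 6.83 CPM after resection and 2.59 ± 2.38 CPM after sham surgery (SD, n = 3). Its log2 fold change was 2.37 (95% interval 0.22 to 4.53, Benjamini-Hochberg adjusted p = 1, edgeR quasi-likelihood test), and 1.91 without the first library of both resected groups. It was the 1 member with groups apart, as were 8.47% of genes. The macrophage sum was 5.29 to 195 CPM in the P2 sham libraries and 66.2 to 446 CPM in the P2 resected libraries, with 10 of 11 genes positive. Other lists moved as well, with 0 genes called by edgeR. The cardiomyocyte sum went from 919 to 1257 CPM in sham to 320 to 938 CPM in resected libraries, with 1 of 10 genes positive and a median log2 fold change of -0.74. The mural sum went from 1252 to 1908 CPM to 1404 to 2886 CPM, with 9 of 11 positive, and of the fibroblast genes 3 of 11 had an unadjusted p under 0.05. Of the erythroid genes 0 of 5 and of the tested platelet genes 1 of 4 were positive, with medians of -0.91 and -1.18. The part of these markers in the values of Flt1 was not tested.

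Of the members, 9 of 10 had a positive log2 fold change at P2, with a median of 0.88 against 0 over all genes tested. This direction rested on replicate 1 of the resected group. Without the first library of both resected groups Pecam1 went from 0.74 to -1.36, Cldn5 from 1.47 to -2.02, Tie1 from 1.02 to -1.22, Vwf from 1.42 to -0.97, Cdh5 from 1.37 to -0.75 and Kdr from 0.17 to -0.50. Tek was at 0.10 (95% interval -0.45 to 0.66) and Esam at 0.19 (95% interval -0.71 to 1.09), and without those libraries at -0.028 and -0.24.

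At P10, edgeR called 0 of 10 members and 0% of all genes tested, and DESeq2 and limma voom called 0 members, beside 0.152% and 0% of the genes they tested. Without the low-count filter edgeR called 1 member, Kdr, beside 0.263% of genes. Flt1 was again the 1 member at an unadjusted p under 0.05, where 4.09% of genes were. It was at 10.9 ± 9.79 CPM after resection and 1.73 ± 1.37 CPM after sham surgery (SD, n = 3). Its log2 fold change was 2.66 (95% interval 0.48 to 4.85, Benjamini-Hochberg adjusted p = 1, edgeR quasi-likelihood test), and 1.61 without the first library of both resected groups. Flt1 and Cdh5 were the 2 members with groups apart, as were 8.68% of genes. Cdh5 was at 22.5, 6.17 and 7.07 CPM in P10 resected replicates 1 to 3 and at 2.95, 5.95 and 1.79 CPM in P10 sham, so that the groups nearly touched, and its log2 fold change was 1.74 (SE 1.23), or 0.89 without the first library of both resected groups. Other cells' markers were higher after resection at P10 too: 6 of 6 epicardial, 5 of 5 erythroid and 10 of 11 macrophage genes had a positive log2 fold change, with medians of 3.71, 1.36 and 0.80, 0 of them called by edgeR, and 1, 2 and 0 at an unadjusted p under 0.05. Their sums were 0 to 8.80, 66.9 to 139.5 and 89.1 to 362 CPM in the sham libraries and 3.96 to 54.5, 83.5 to 478 and 69.4 to 1080 CPM in the resected libraries. The platelet sum was 15.7 to 34.1 CPM in sham and 28.7 to 52.1 CPM in resected libraries, with 3 of 4 tested genes positive, 0 called by edgeR and 1 at an unadjusted p under 0.05. The part of these markers in the values of Flt1 and Cdh5 was not tested.

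The P10 resected libraries gave 8 of 10 members a positive log2 fold change, with a median of 1.27 against 0.02 over all genes tested. Kdr had 2.68 (95% interval -0.25 to 5.60), was called without the low-count filter (2.67, adjusted p = 0.00489 by edgeR), and became 1.52 without the first library of both resected groups, while Pecam1 went from 1.08 to -0.015 and Cldn5 from 0.61 to -0.29. Tek went the other way, with -0.39 (95% interval -0.95 to 0.17), and Esam was at 0.03 (95% interval -0.87 to 0.93). The resection effect at P10 minus that at P2 was called for 0 of 10 members by edgeR, DESeq2 and limma voom, beside 0%, 0.083% and 0% of the genes they tested. At an unadjusted p under 0.05 there were 0 members and 2.88% of genes. For Flt1 that difference was 0.29 with a 95% interval of -2.62 to 3.19, and for Tek -0.49 with a 95% interval of -1.28 to 0.30.

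Other endothelial genes were measured beside the members, as a list of 37 genes of which 37 were tested. The list is mixed in these cells, as some genes picked from it after their values were seen show. Cd34 averaged 310 RPKM, Ramp2 73.4 RPKM, Eng 55.8 RPKM and Ephb4 26.1 RPKM, all above Esam per length and all known outside endothelium too, whereas Erg, Sox17, Robo4 and Adgrl4 averaged 0.344, 0.800, 0.507 and 0.685 RPKM and 18 of 37 were at 0 in some library. Ly6c1, Fabp4 and Gja4 averaged 56.5, 22.2 and 17.2 RPKM, also above Esam. In P10 baseline against P2 baseline libraries, edgeR called 3 of 37, all higher, beside 4.38% of all genes. DESeq2 called 5 of 37 beside 5.72%, and limma voom 4 of 37 beside 22.5%. In the window comparison edgeR called 5 of 37, with 4 higher and 1 lower, beside 13.5% of all genes. DESeq2 called 6 of 37 beside 10.9%, and limma voom 10 of 37 beside 28.3%. For resection, edgeR, DESeq2 and limma voom called 0 of 37 at either age, with 4 at P2 and 1 at P10 under an unadjusted p of 0.05 in edgeR, beside 4.51% and 4.09% of all genes.

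Cd34, a surface sialomucin of endothelial, blood stem and mesenchymal cells, rose from 1509 ± 361 CPM in the P2 window to 3009 ± 430 CPM in the P10 window (SD, n = 9), a log2 fold change of 1.00. Gja4, the gap junction protein connexin 37, rose from 12.9 ± 15.7 to 44.9 ± 11.5 CPM (SD, n = 9), a log2 fold change of 2.31. Without the first library of both resected groups the P2 window of Gja4 was at 8.07 CPM and the log2 fold change 2.67 (adjusted p = 2.79e-04 by edgeR). Ly6c1 rose from 10.45 ± 7.996 to 179 ± 191 CPM (SD, n = 9), a log2 fold change of 3.51, with P10 baseline at 21.3 ± 8.36 CPM and the operated P10 groups at 212 ± 36.2 and 304 ± 288 CPM (SD, n = 3). Fli1, an ETS factor, fell by 0.77 on the log2 scale, from 28.8 ± 7.33 to 17.1 ± 4.87 CPM (SD, n = 9). Benjamini-Hochberg adjusted p-values (edgeR quasi-likelihood test) were 2.92e-05 for Cd34, 3.93e-04 for Gja4, 2.21e-04 for Ly6c1 and 0.0107 for Fli1.

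Ackr1, the chemokine receptor of venules, had no count in the P2 baseline and P2 sham libraries and 14 counts in P2 resected replicate 1, against 3 to 69 counts in each of the 9 P10 libraries. At baseline its mean at P10 was 41.0-fold the level of 3 counts over the P2 baseline group, and 27.1-fold without P10 baseline replicate 1. This lower bound covers counting error only and not the spread between replicates, and P10 baseline replicate 2 held 3 counts. Ackr1 was called by edgeR at baseline (adjusted p = 0.047) and in the window comparison (adjusted p = 0.0013, both Benjamini-Hochberg adjusted, quasi-likelihood test), but not at baseline when any of the 6 baseline libraries was left out. At baseline Cd34 and Gja4 were called too, with log2 fold changes of 1.195 (SE 0.21) and 4.08 (SE 0.70).

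The ligands and partners of the receptors among the members form a list of 12 genes, all tested. In the window comparison 2 of the 12 were called by edgeR, both higher at P10, beside 13.5% of all genes. DESeq2 called 2 beside 10.9%, and limma voom 3 beside 28.3%. At baseline edgeR called 0 of 12 beside 4.38% of all genes, with 2 of 12 at an unadjusted p under 0.05 beside 18.7%, DESeq2 called 1 beside 5.72% and limma voom 2 beside 22.5%. Placental growth factor (Pgf), a ligand of Flt1, was at 78.2 ± 17.5 CPM in the P2 window and 124 ± 41.6 CPM in the P10 window (SD, n = 9), a log2 fold change of 0.67 (Benjamini-Hochberg adjusted p = 0.042, edgeR quasi-likelihood test). Angpt4, an angiopoietin, had 27 counts in the P2 window and 159 in the P10 window, was at 0 in 7 of the 9 P2 libraries and 1 of the 9 P10 libraries, and was called with a Benjamini-Hochberg adjusted p of 0.00805 by the same edgeR test. The call of Pgf was lost in 14 of 18 fits that left out 1 library. The main ligands of Tek and Kdr did not pass. Angpt1, which activates Tek, averaged 9.45 CPM over 18 libraries and had a log2 fold change of 0.53 (SE 0.52), and Angpt2, its context-dependent antagonist, averaged 8.78 CPM with -0.47 (SE 0.34). Vegfa averaged 66.8 CPM with 0.18 (SE 0.21), Vegfb 28.8 CPM with -0.20 (SE 0.19), Vegfc 37.9 CPM with 0.03 (SE 0.20) and Vegfd 17.4 CPM with 0.39 (SE 0.25).

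The VEGF co-receptor Nrp1 was well expressed at 202 CPM, with a log2 fold change of 0.34 (SE 0.18), and Nrp2 averaged 11.1 CPM with -0.22 (SE 0.40). Flt4, the VEGF receptor of lymphatic endothelium, averaged 5.46 CPM with -0.40 (SE 0.51), and Ptprb, the phosphatase that turns Tek off, averaged 20.4 CPM with -0.41 (SE 0.45). Of the 3 tools limma voom alone called Ptprb, at -1.22 (Benjamini-Hochberg adjusted p = 0.0418, limma voom). Per length, Tek at 52.3 RPKM was thus far above its ligands Angpt1 (1.82 RPKM) and Angpt2 (2.38 RPKM) and its phosphatase Ptprb (1.53 RPKM) in the same libraries.

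The genes whose pattern over the 18 libraries was most like the mean of the 10 members, by Pearson's r of log2 CPM, were Tmem88 (0.89), Mall (0.89), Sox17 (0.87), Lrrc3b (0.86), AU021092 (0.85), Jag2 (0.84), Podxl (0.84) and Tmem255b (0.83). Their levels were low: Tmem88 ran from 0.968 to 28.8 CPM, Podxl from 0 to 30.6 CPM and Sox17 from 0 to 19.6 CPM, and Mall, Lrrc3b, AU021092 and Tmem255b averaged 0.689, 0.906, 0.915 and 1.17 CPM. Over the 16 libraries without the first of both resected groups, r was 0.76 to 0.86 for these 8 genes. Of the 50 genes most alike, 12 were on the list of 37 other endothelial genes. The points share their libraries, and such likeness is a description.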

How the data were processed

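Bulk RNA of sorted GFP+ cells, amplified with a SMARTer low-input kit and made into Nextera XT libraries, was read from 1 end. Per their methods, the authors trimmed reads with fastp 0.20.0, mapped them with STAR 2.7.0f to GRCm38.p6 and counted those on exons per GENCODE M22 gene symbol with featureCounts (Subread 1.6.4) ignoring strand. The deposited values are whole counts that were not normalized. Totals were 10462737 to 22980554 per library. The methods name no molecular identifiers, so that amplified reads may be copies of 1 molecule and the limits that a count of 0 allows cover counting error only.

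From the counts, 16170 of 55453 symbols (28906 with a count) passed edgeR's filterByExpr (minimum count 10, minimum total 15). Libraries were scaled by TMM, and edgeR 4.0.16 in R 4.3.3 fitted a quasi-likelihood model with a mean for each of 6 groups to all 18 libraries. In tests on simulated data the fit recovered large changes between groups of 3 only in part and smaller ones rarely, so that a count of 0 called does not show that genes did not change. Contrasts with a Benjamini-Hochberg adjusted p under 0.05 over all genes tested were called. Standard errors (SE) were derived from the F statistic, and 95% intervals from these and the t distribution with edgeR's degrees of freedom. RPKM used merged exon lengths of GENCODE M21, 1 release before the authors' annotation, which also gave the positions. DESeq2 1.42.0, limma 3.58.1 (voom with sample quality weights), other scalings, no filter, a replicate block and each library left out were alternatives. DESeq2 was run on all 28906 symbols with a count. Genes to which it gave no adjusted p counted as tested and not called. Its shares of genes called thus have a wider base than those of edgeR with the filter. The fit without the first library of both resected groups was added after seeing the data.

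The members, the lists and most named genes were chosen with earlier results of these data known. All 10 members are named; of other endothelial genes, those called at baseline or between windows; of the VEGF and angiopoietin list, all; and the 8 genes most alike. Further endothelial genes are named as examples picked after their values were seen. The labels do not say that replicates came from separate pups, so that p-values measure the spread between these libraries. Replicates differed by more than sampling noise (chi-square per gene 34.2 to 295), and no library was counted with another. The study's spatial transcriptomics was not analysed here.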

Additional observations from a re-analysis of the deposited data

Results flagged for a closer look

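Within the 9 libraries of each age window, 1 library stood far above the rest for 7 of the 20 sets of values looked at (10 genes in 2 windows), by Dixon's criterion, under which chance flags about 1 in 20 sets of normally distributed values. The rate for CPM values like these was not measured. The windows pool 3 groups, and looking at windows was decided after the data were seen. In P2 resected replicate 1, Pecam1 was at 59.0 CPM, where the next library had 27.0 CPM and the window's median was 11.1 CPM. Cldn5 was at 68.0 CPM there, with 14.6 CPM next, and Vwf at 32.7 CPM, with 6.79 CPM next. In P10 resected replicate 1, Kdr was at 68.2 CPM, with 22.5 CPM next and a median of 6.67 CPM. Cdh5 was at 22.5 CPM there, with 9.37 CPM next, Flt1 at 22.2 CPM, with 5.91 CPM next, and Emcn at 17.2 CPM, with 5.69 CPM next. Tek, Esam and Tie1 had no such library in either window.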

How the results depend on the processing

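The fold changes of 45 pairs of gene and comparison were followed over 734 alternatives. Direction and side of the threshold held in 628, 8 lost and 10 gained a call, and 88 changed sign, none of them for Esam or Tek between the ages. Most sign changes were of the 8 variable genes, whose standard errors exceeded their fold changes in many comparisons. Counts of called members or list genes held in 132 of 151 alternatives.

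Members called at baseline went from 1 (Esam) to 0 in a fit of the compared groups alone and ran from 0 to 1 with a library left out. Members called between windows went from 1 to 2 with DESeq2, with voom, with upper quartile scaling and with the replicate block, in each case by Tek, to 3 without the low-count filter (Tek, Esam and Vwf), and ran from 0 to 2 with a library left out. P10 resection gave 1 member without the filter, Kdr, with an adjusted p of 0.00489 from edgeR. Other endothelial genes called went from 3 to 5 at baseline with DESeq2 and from 5 to 10 between windows with voom. The main fit did not treat replicate numbers as pairs. Deviations of same-numbered libraries correlated at -0.122 to 0.357 (median 0.0519), over 0.1 in 12 of 45 pairs. Those of libraries with other numbers correlated at -0.263 to 0.184 (median -0.0253), over 0.1 in 11 of 90 pairs.

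Without the first library of both resected groups (added after seeing the data), signs changed between windows for Pecam1 (0.18) and Emcn (-0.26). At P2 resection they changed for Pecam1 (-1.36), Cdh5 (-0.75), Kdr (-0.50), Tek (-0.028), Tie1 (-1.22), Esam (-0.24), Cldn5 (-2.02) and Vwf (-0.97), and at P10 for Pecam1 (-0.015), Esam (-0.24) and Cldn5 (-0.29). The difference of the resection effects of Flt1 became -0.31. With voom, signs changed for Tie1 at baseline (-0.49), Kdr (0.13) and Cldn5 (-0.15) between windows, Flt1 in the difference of resection effects (-0.093), and at P2 resection for Pecam1 (-0.81), Cdh5 (-0.054), Tie1 (-2.08), Esam (-0.070), Cldn5 (-1.35) and Vwf (-0.83). Kdr between windows also changed sign with DESeq2 (0.0045), RLE size factors (0.0033), upper quartile scaling (0.023), no filter (0.023) and the replicate block (0.26). Under the replicate block so did Pecam1 between windows (0.011), Esam at P10 resection (-0.016) and Flt1 in the difference of effects (-0.27). For these changes the cause was not tested.

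With a library left out, ranges that crossed 0 were, at baseline, -1.52 to 0.31 for Cdh5, -2.52 to 0.12 for Kdr, -1.47 to 2.11 for Tie1, -1.91 to 0.10 for Emcn and -0.38 to 2.72 for Cldn5. Between windows they were -0.76 to 0.54 for Pecam1, -0.11 to 0.96 for Cdh5, -0.50 to 0.90 for Kdr, -0.50 to 1.04 for Tie1, -0.36 to 0.61 for Emcn and -0.63 to 1.39 for Cldn5. At P2 resection they were -1.36 to 1.55 for Pecam1, -0.75 to 3.27 for Cdh5, -0.50 to 2.91 for Kdr, -0.057 to 0.21 for Tek, -1.22 to 1.61 for Tie1, -1.77 to 0.42 for Emcn, -0.24 to 0.47 for Esam, -2.02 to 2.04 for Cldn5 and -0.97 to 1.99 for Vwf. At P10 resection they were -0.014 to 2.88 for Pecam1, -0.24 to 0.28 for Esam and -0.29 to 3.20 for Cldn5, and for Flt1 in the difference of effects -0.77 to 1.06.

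Counts of all genes called went from 709 at baseline to between 264 and 3645, from 515 to between 125 and 1272 after sham surgery, from 139 to between 30 and 908 after resection, from 2183 to between 1578 and 4569 between windows, and from 0 to at most 32, 76 and 30 for resection at P2, at P10 and their difference. Cd34 and Gja4 stayed called in 13 of 13 alternatives at baseline, and they, Ackr1, Ly6c1, Fli1 and Angpt4 in 25 of 25 between windows, but Pgf in 11 of 25 and Ackr1 at baseline in 6 of 12. RLE, upper quartile and DESeq2 scaling moved the median of all genes by at most 0.029 on the log2 scale. Depth sets the CPM of 3 counts, the limit taken for a count of 0, in the libraries where Emcn, Cldn5 or Vwf had none.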

Other observations

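Levels of some further endothelial genes, picked after their values were seen, were as follows. Of arterial genes, Gja4 averaged 28.9 CPM over the 18 libraries, while Gja5, the connexin 40 of arteries and of the conduction system, was at 0 in 8 libraries and at a median of 0.371 CPM, although 1 library reached 62.6 CPM. The Notch ligand Dll4 averaged 2.84 CPM and Bmx 1.53 CPM. Of genes known from endocardium, Nfatc1 was present in every library at 29.0 to 118 CPM, whereas Npr3 averaged 2.95 CPM and Cytl1 was at 0 in 9 libraries. The lymphatic genes Lyve1 and Prox1 averaged 1.43 and 2.76 CPM, with Lyve1 at 0 in 9 libraries. Of these, edgeR, DESeq2 and limma voom all called Gja4 between windows, limma voom alone called Bmx (-3.34), Npr3 (-1.52) and Nfatc1 (-0.48), all lower on the log2 scale at P10, and DESeq2 alone called Cytl1. Its counts lay mostly in 1 library: 181 of the 213 counts of Cytl1 in the P10 window were in P10 sham, where 2 of 3 libraries were at 0 and the other at 11.7 CPM, the window medians were 0 CPM at P10 and 0.0551 CPM at P2, and the log2 fold change was 7.485 by DESeq2 and 0.95 by limma voom. Nr2f2, a factor of veins that mesenchymal cells also use, lay between 16.6 and 35.9 CPM in all 18 libraries.

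Fabp4, the fatty acid binding protein of capillaries and adipocytes, ran from 17.4 to 379 CPM, Gpihbp1, which carries lipoprotein lipase across capillary walls, from 1.10 to 51.5 CPM, and Aplnr, the apelin receptor, from 0 to 44.3 CPM.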
